A study of Mus musculus with 4 samples.

Results

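The resident macrophage and efferocytosis genes described here are 10 genes followed across the cell types of 4 mouse mammary tumours. They were chosen by symbol and not by a threshold on a measured value, but with earlier results of these data known. They are Folr2, Cd163, Lyve1, Mrc1, Gas6, Mertk, Axl, Selenop, Igf1 and Mfge8. All 10 were found among the 31053 mouse genes of the count tables. In 3' droplet sequencing each unique molecular identifier (UMI) stands for 1 captured transcript, and a level is given below as CPM, the UMIs of a gene per 1000000 mouse UMIs of the same cells.

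H605, 1 HER2+ mouse mammary tumour line grown in culture, was injected in the mammary pad of FVB/NJ hosts aged 6 to 8 weeks, and the tumours were taken at day 14 and enriched for live cells. In the first group, WT, both hosts were wild type. In the second, IL1α-/-, both hosts lacked the gene for interleukin 1α, a cytokine that many cells release when damaged. The transplanted tumour cells were the same in both groups and not knockout, so the genotype is that of the host cells only. There were 2 tumours per group, named replicate 1 and 2, and each is 1 library of 1 tumour. The series title places the question at host interleukin 1α and the step from monocyte to macrophage. The labels say that 2 WT and IL1α-/- pairs were collected on separate days. Whether same-numbered tumours were collected on the same day is not stated.

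Macrophages that live long in a tissue clear dying cells, a process called efferocytosis. Bridging proteins such as Gas6 and Mfge8 bind phosphatidylserine on the dying cell, and receptors on the phagocyte bind the bridge: Gas6 is the ligand of the receptor tyrosine kinases Axl and Mertk, and Mfge8 is a ligand of αv integrins. Folr2 (folate receptor beta), Cd163 (the haemoglobin-haptoglobin scavenger receptor), Lyve1 (a hyaluronan receptor) and Mrc1 (the mannose receptor CD206) are surface proteins widely used to mark resident macrophages, and such cells also secrete Selenop, the plasma selenium carrier, and the growth factor Igf1.

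The DNA before the start site is shown for 3 of the members, as a description. Shared control of the members was not tested. In GRCm38 (GENCODE vM21) Axl spans chr7:25757273-25788705, Mfge8 chr7:79133768-79149060 and Cd163 chr6:124304656-124330527, and each printed window lies outside the annotated gene. Axl is the gene that passed the test between hosts, Mfge8 is the bridge with the most uneven counts, and Cd163 is the scavenger receptor by which cells are later split. Sequences are from RefSeq on GRCm38.p6, which had a promoter entry for 9 of the 10 genes. Each is the 250 bases before the RefSeq start, on the gene's own strand, and capitals mark GAGGAA, the core of sites bound by the macrophage factor PU.1, or its reverse complement TTCCTC.
Axl, chr7:25788734-25788983, minus strand: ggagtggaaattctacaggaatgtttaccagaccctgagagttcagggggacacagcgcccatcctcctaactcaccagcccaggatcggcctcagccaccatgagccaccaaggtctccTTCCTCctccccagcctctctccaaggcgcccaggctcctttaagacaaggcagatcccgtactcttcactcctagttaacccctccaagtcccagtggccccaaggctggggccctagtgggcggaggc
Mfge8, chr7:79149061-79149310, minus strand: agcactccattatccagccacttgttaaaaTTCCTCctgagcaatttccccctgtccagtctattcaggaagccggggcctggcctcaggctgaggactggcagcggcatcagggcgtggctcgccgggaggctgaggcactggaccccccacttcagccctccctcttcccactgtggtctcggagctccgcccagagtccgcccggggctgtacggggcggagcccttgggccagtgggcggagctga
Cd163, chr6:124304401-124304650, plus strand: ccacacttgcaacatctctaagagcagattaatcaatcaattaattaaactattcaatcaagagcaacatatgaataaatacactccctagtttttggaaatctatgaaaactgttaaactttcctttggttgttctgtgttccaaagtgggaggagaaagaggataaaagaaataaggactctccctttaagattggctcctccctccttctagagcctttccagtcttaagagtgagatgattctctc
On either strand, GAGGAA was present in the same window of 5 of the 9 members (Mrc1, Axl, Mfge8, Igf1 and Selenop) and in 23.1% of 27025 mouse promoters. A MAF half-site, TGCTGA, was present in 1 of the 9, Folr2, and in 15.8% of the 27025. Neither motif contains the other. A match is a description of letters and not a binding site.

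The libraries held 6705368 to 29001333 UMIs, and 14082 cells were kept, 3130 to 3866 per tumour. IL1α-/- replicate 1 stood apart by depth: its median cell held 1348 UMIs, against 2896 to 4193 in the other libraries. Il1a checked the labels: 64 and 109 UMIs lay in WT tumours, and 1 and 0 in IL1α-/- tumours. Pairs of libraries shared 0 to 5 cell barcodes. Tumour epithelial cells differed in number, with 344 and 234 in WT tumours and 26 and 2 in IL1α-/- tumours.

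Cell types were assigned by marker gates that used none of the 10 genes. Mononuclear phagocytes, meaning monocytes and macrophages, were gated on 8 genes (Lyz2, Csf1r, Cd68, Fcgr3, Ms4a6c, Adgre1, Cd14 and Ms4a7), and every tumour expressed all 8. They numbered 361 and 588 in WT tumours and 132 and 229 in IL1α-/- tumours. Within them the C1q-high gate took cells with at least 0.1% of their UMIs from C1qa, C1qb and C1qc, the complement genes of macrophages; the C1q-low remainder was divided into cells with Arg1, cells with monocyte genes (Ly6c2, Ccr2, Plac8, Vcan and Chil3) and others. The gates are ranges of expression, not proven cell types: 105 of 1310 phagocytes lay within 1.2 times of the phagocyte threshold, and 67 within 2 times of the C1q threshold.

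Where the genes were expressed came first, because several of them are not confined to macrophages. Of all UMIs of a gene in kept cells, phagocytes held 88.7% for Folr2, 90.5% for Cd163, 90.5% for Lyve1 and 82.3% for Mrc1. A further 13.5% of Mrc1 UMIs lay in cells that passed no gate. For Mertk the phagocyte share was 62.4% and for Selenop 54.1%. Phagocytes held far less of the others: 22.6% for Axl, 12.8% for Igf1, 8.07% for Gas6 and 7.29% for Mfge8.

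Fibroblasts held the larger part of 3 of these genes, with 85.8% of all Gas6 UMIs, 84.8% of Igf1 and 62.4% of Axl. Tumour epithelial cells held 76.8% of Mfge8. The ligand Gas6 and its receptor Axl were thus both most abundant in fibroblasts. Mertk, also a receptor of Gas6, was most abundant in C1q-high phagocytes.

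**Figure D1:**
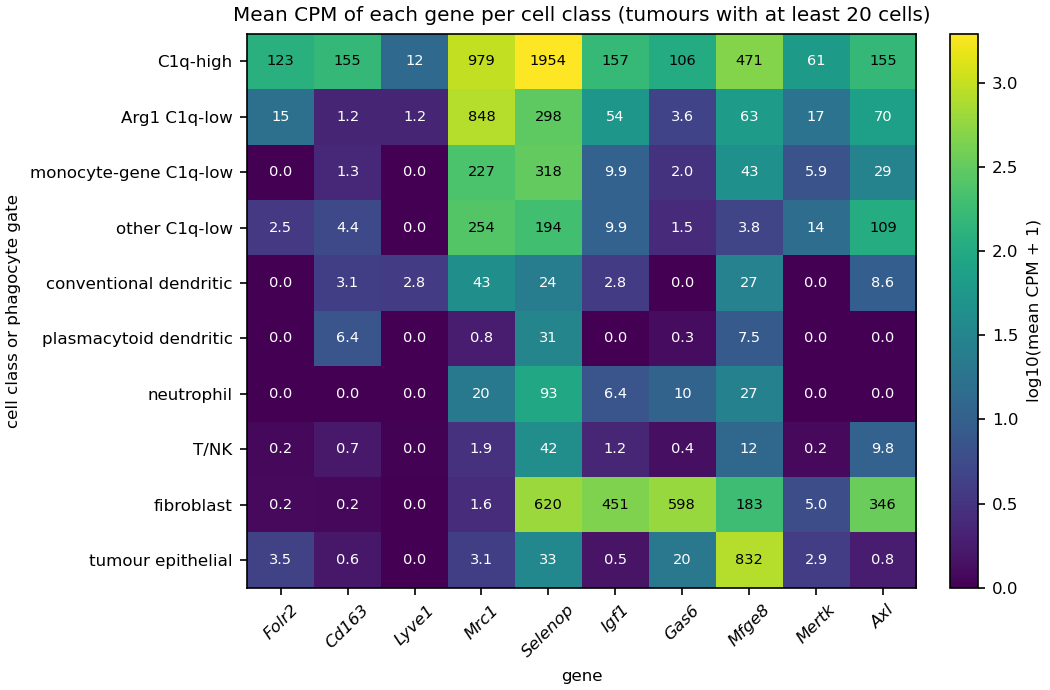
Mean level in CPM of the 10 genes (columns) in 10 cell classes or phagocyte gates (rows), over tumours with at least 20 such cells; colour is log10(mean CPM + 1). C1q-high phagocytes are the highest row for Folr2, Cd163, Lyve1, Mrc1, Selenop and Mertk, fibroblasts for Igf1, Gas6 and Axl, and tumour epithelial cells for Mfge8.

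As levels, Gas6 in fibroblasts was 481 and 535 CPM in WT tumours and 350 and 1024 in IL1α-/- tumours, against a mean of 106 ± 62.1 CPM (SD, n = 4) in C1q-high phagocytes. The ranges did not overlap, since the highest C1q-high value was 169 CPM. Igf1 in fibroblasts spread more, at 280, 770, 98.5 and 655 CPM in the order WT replicates 1 and 2, then IL1α-/- replicates 1 and 2. That order of tumours is used for every set of 4 values from here on. C1q-high Igf1 was 198, 115, 12.4 and 303 CPM, so Igf1 in fibroblasts and C1q-high phagocytes overlapped across tumours. Both classes had their lowest Igf1 in IL1α-/- replicate 1.

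Mfge8 in tumour epithelial cells was 773, 1208 and 516 CPM in the 3 tumours with at least 20 such cells, and 183 ± 35.6 CPM (SD, n = 4) in fibroblasts. Selenop was highest in C1q-high phagocytes (1954 ± 923 CPM, SD, n = 4), then fibroblasts (620 ± 276), and these 2 neighbours in the order kept apart by only a narrow margin, 964 CPM as the lowest C1q-high tumour and 895 as the highest fibroblast one. T/NK cells, used as the class that should show free RNA, held 41.8 ± 9.21 CPM of Selenop, 12.0 ± 1.82 of Mfge8, 9.79 ± 4.42 of Axl and under 2 CPM of each other member (all SD, n = 4).

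The next question was how the 10 genes differ between macrophage-like C1q-high phagocytes and the C1q-low rest of the same tumour. All 10 were higher in C1q-high cells and passed the test across all genes (edgeR quasi-likelihood test, tumour as a block, Benjamini-Hochberg adjustment, threshold 0.05). Of 7136 genes tested, 626 were called higher in C1q-high cells, or 8.77%. For 7 of the 10 (Folr2, Cd163, Lyve1, Gas6, Mertk, Igf1 and Mfge8) the C1q-low cells alone held too few counts for the filter on low counts. Those 7 entered the test through the C1q-high cells, where they are high, so a difference in that direction was partly fixed by the filter and the count of 10 is not read against the 8.77%. Mrc1, Axl and Selenop had enough counts in both gates. Chosen as macrophage genes, the members are not independent evidence of the gate's identity.

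Among the surface markers, Folr2 was 124, 82.7, 111 and 172 CPM in C1q-high cells and 18.9, 5.14, 5.71 and 5.05 CPM in C1q-low cells. The gates did not overlap (log2 fold change 3.75, SE 0.29, adjusted p = 5.93e-08). Within the C1q-low cells, no Folr2 UMI lay in the monocyte-gene cells of any tumour. Of the 13 C1q-low Folr2 UMIs of WT replicate 1, 12 lay in 1 Arg1 cell, described with Cd163 next.

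Mrc1 had the smallest step of the 10, with 1048, 824, 680 and 1365 CPM in C1q-high cells and 470, 338, 354 and 459 CPM in C1q-low cells (log2 fold change 1.30, SE 0.15, adjusted p = 6.26e-06). Its C1q-low level was not even across gates. In the 2 tumours with at least 20 Arg1 C1q-low cells Mrc1 was 612 and 1083 CPM there, against 227 ± 122 CPM (SD, n = 4) in monocyte-gene cells.

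Cd163 was 462, 98.3, 0 and 60.6 CPM in C1q-high cells and 161, 2.20, 0 and 0 CPM in C1q-low cells. IL1α-/- replicate 1 held no Cd163 UMI in 132 phagocytes, and at its depth 3 counts would be 37.1 CPM in the C1q-high gate. Between gates it rose by 2.63 on the log2 scale (SE 0.43, adjusted p = 0.000287). It did not pass in DESeq2 (adjusted p = 0.163). Of the 111 C1q-low Cd163 UMIs in WT replicate 1, 106 came from 1 Arg1 cell with 0 C1q UMIs, 82 Mrc1 UMIs, 12 of Folr2, 10 of Gas6 and 465 of Ccl8. Without the phagocyte highest for each member, the log2 fold change of Cd163 was 5.80.

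Lyve1 was scarce, at 18, 16, 2 and 0 UMIs in C1q-high cells and 1, 1, 0 and 0 in C1q-low cells. The fitted rise of 3.51 on the log2 scale (SE 0.86, adjusted p = 0.00817) rested on those 38 UMIs. The call was lost without WT replicate 1 (adjusted p = 0.123) and without WT replicate 2 (0.13). The lymphatic endothelial markers Prox1, Ccl21a and Mmrn1, from the other cell type known for Lyve1, were at 0 in phagocytes of all 4 tumours.

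**Figure D2:**
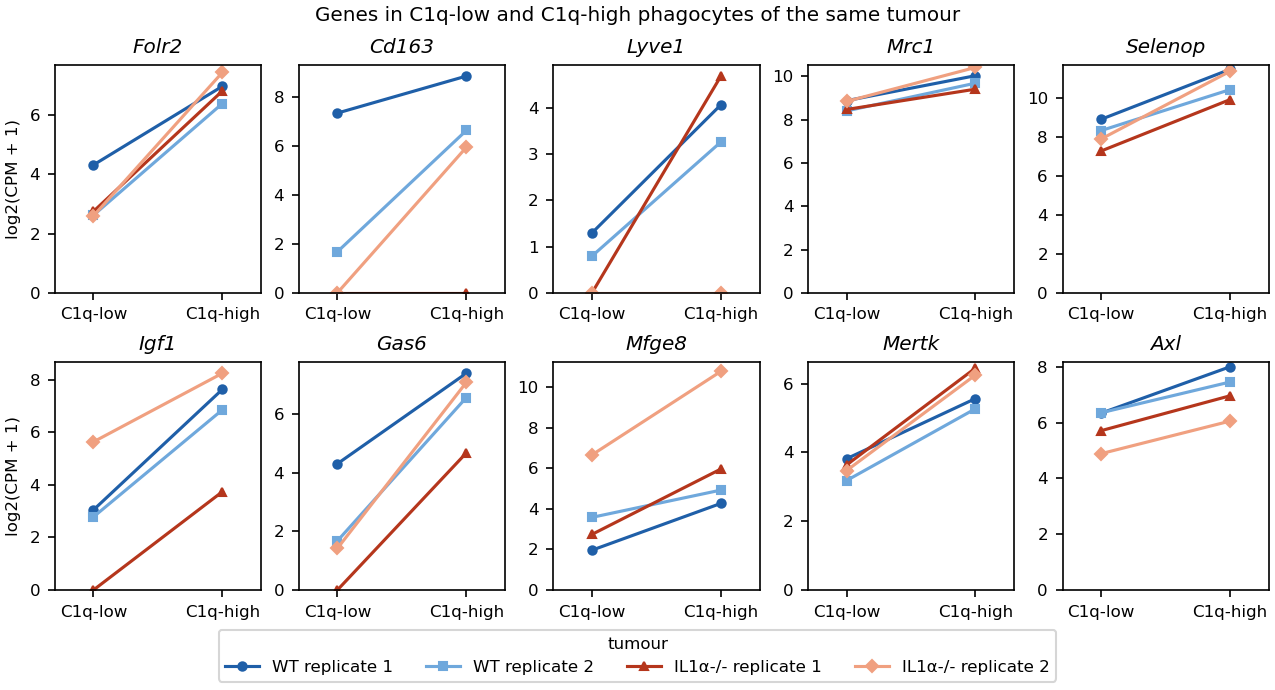
Level of each gene, as log2(CPM + 1), in C1q-low and C1q-high phagocytes, with 1 line per tumour and WT tumours in blue. Lines rise to the right except Cd163 in IL1α-/- replicate 1 and Lyve1 in IL1α-/- replicate 2, which stay at 0.

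Among the secreted proteins, Selenop was 2832, 1377, 964 and 2643 CPM in C1q-high cells and 478, 320, 154 and 237 in C1q-low cells (log2 fold change 2.72, SE 0.19, adjusted p = 1.77e-08). Igf1 rose by 3.62 on the log2 scale (SE 0.29, adjusted p = 6.90e-08). Gas6 rose by 4.31 (SE 0.34, adjusted p = 6.53e-08), the largest fitted value of the 10. C1q-low cells held 13, 3, 0 and 1 UMIs of Gas6. Of the 13 in WT replicate 1, 10 were in the same Arg1 cell that held 106 Cd163 UMIs.

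Mertk and Axl, the receptors of Gas6 among the members, were higher in C1q-high cells as well. Mertk was 46.4, 37.6, 86.6 and 75.2 CPM there and 8.08 to 13.1 CPM in C1q-low cells (log2 fold change 2.36, SE 0.28, adjusted p = 7.85e-06). Axl was 255, 175, 124 and 65.5 CPM in C1q-high cells and 79.98, 80.8, 51.4 and 28.6 in C1q-low cells (log2 fold change 1.39, SE 0.18, adjusted p = 2.18e-05). For Axl the gates overlapped across tumours but not within any tumour. Axl was also present in the other C1q-low cells, those below both the Arg1 and the monocyte-gene threshold, at 109 ± 30.0 CPM (SD, n = 4).

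The bridge Mfge8 also rose in C1q-high cells, from 2.91, 11.01, 5.71 and 101 CPM to 18.4, 29.5, 61.8 and 1775 CPM (log2 fold change 3.37, SE 0.37, adjusted p = 3.55e-06). The last value is set by single cells. In IL1α-/- replicate 2, 1 C1q-high cell held 660 of the 792 phagocyte Mfge8 UMIs. That cell held 25365 UMIs in all, 107 from C1q genes, 763 of Mmp12, 737 of Ccl8, and 0 of the 6 tumour epithelial markers. Without the phagocyte highest for each member, the log2 fold change between gates was 1.35.

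**Figure D3:**
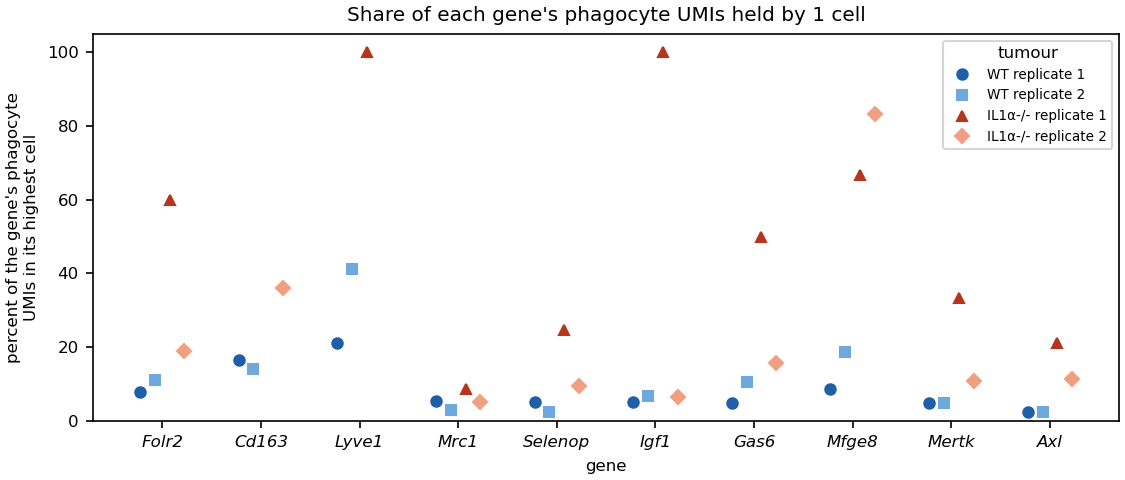
Percent of a gene's phagocyte UMIs that lay in the 1 phagocyte highest for it, per gene (horizontal axis) and tumour. Mfge8 in IL1α-/- replicate 2 reaches 83.3%; the values at 100% are IL1α-/- replicate 1, with 2 UMIs of Lyve1 and 1 of Igf1.

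The other genes of the same pathways were counted from 9 lists between the same gates. Over all genes tested 8.77% were called higher, 8.77% lower and 17.5% in either direction, and a list's count near those shares is no result about the list. Of 15 tested resident macrophage genes other than the members, 13 were higher in C1q-high cells and 1, F13a1, was lower (median log2 fold change 2.04, against -0.02 over all genes tested). In any list, genes scarce in C1q-low cells, such as C4b (1, 6, 3 and 0 UMIs there), can have entered through the C1q-high cells, as some members did. Their direction was then partly fixed by the filter, so this count and median are not read against all genes. Among the 4 with the smallest p, the chemokines Ccl8 and Pf4 had log2 fold changes of 4.72 and 3.32, the complement gene C4b 4.86 and the Fc receptor gene Fcgrt 2.16 (adjusted p = 4.26e-10, 4.54e-08, 1.42e-08 and 6.98e-08).

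Sterol efflux and nuclear receptor genes, which handle the cholesterol of engulfed cells, were higher for 7 of 10 tested and lower for 1, Abca7. On the log2 scale Abca1, a cholesterol exporter, rose by 1.98 (adjusted p = 5.15e-08), the lipid carrier Apoe by 2.14 (1.10e-07), the oxysterol receptor gene Nr1h3 by 1.49 (0.000425) and the lysosomal cholesterol transporter Npc1 by 1.00 (0.000784).

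The remaining apoptotic cell bridges and receptors did not share 1 direction: of 14 tested, 2 were higher, 3 lower and 9 did not pass. Stab1, a phosphatidylserine receptor, was higher (log2 fold change 2.56, adjusted p = 5.60e-08), as was the integrin gene Itgb5 (1.90, 6.12e-06). Thbs1, a thrombospondin that can bridge dying cells to phagocytes, was lower (-3.45, 3.02e-06), as were Scarb1 (-0.95, 0.0184) and Cd93. Of 15 engulfment and digestion genes 4 were higher, namely Ctsd (1.60), Lamp1 (0.92), Dnase2a (0.91) and Lipa (0.83), genes of the lysosome. The 2 lower ones were Dock2 and Elmo2, genes of the engulfment signal to the cytoskeleton. Beyond the 4 of smallest p in a list, lower genes were named after their values were seen.

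Genes around the secreted members and the TAM receptors, the family that includes Axl and Mertk, were mixed. In the selenoprotein list 1 of 9 was higher, Gpx3 (log2 fold change 1.85, adjusted p = 0.00465), and 3 were lower, Gpx1, Selenow and Txnrd1 (-0.53, -0.53 and -0.55). In the IGF list 1 of 6 was higher, the binding protein gene Igfbp4 (2.11, 6.26e-06). In the TAM and gamma-carboxylation list 2 of 7 were higher, Adam17 and Vkorc1 (0.79 for Vkorc1, which serves the vitamin K-dependent carboxylation that Gas6 needs), and 3 were lower, Nr4a1, Socs3 and Socs1 (-1.63, -0.78 and -0.77).

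Of 7 haem and folate genes 3 were higher, Blvrb (0.90), Fth1 (0.65) and Hmox1 (0.89), and the haptoglobin gene Hp was lower (-5.05, adjusted p = 7.36e-08). Of 8 genes of do-not-eat-me and find-me signals 3 were lower, Gpr132 (-1.15), Cd47 (-0.72) and Cd24a (-2.18), and none was higher.

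Within the C1q-high gate the members did not form 1 block. Cells with at least 1 Cd163 UMI numbered 36 of 202, 28 of 328, 0 of 29 and 8 of 81, and they were set beside the C1q-high cells of the same tumour without one, as a description with no test. Cd163-positive cells were somewhat deeper by median, 5495.5 against 4963.5 UMIs in WT replicate 1, 5174.5 against 4368.5 in WT replicate 2 and 5516 against 3940 in IL1α-/- replicate 2.

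Folr2, Mrc1, Selenop, Igf1 and Gas6 were higher in the Cd163-positive cells of all 3 tumours that had such cells. Gas6 was 702 against 59.1 CPM in WT replicate 1, 478 against 57.2 in WT replicate 2 and 554 against 89.0 in IL1α-/- replicate 2. Selenop was 8205 against 1725, 3794 against 1141 and 7883 against 2057 CPM. Lyve1 was 87.1 against 1.05 CPM in WT replicate 1 and 66.6 against 2.95 in WT replicate 2.

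Axl was lower in the Cd163-positive cells of both WT tumours. It was 76.8 CPM in Cd163-positive and 292 in Cd163-negative cells of WT replicate 1 (15 and 277 UMIs), and 24.2 and 189 CPM in WT replicate 2 (4 and 321 UMIs). In IL1α-/- replicate 2 the 8 positive cells held 2 Axl UMIs, under the 3 counts taken as a floor, so no order was read there. The antigen presentation gene H2-Ab1 was lower in Cd163-positive cells too, at 2832 against 11031, 6359 against 9164 and 6750 against 9057 CPM. C1qa, Ccr2 and Spp1 were computed in the same split and are not given here. Splits by Mrc1, Axl and Igf1 were also made and are not given. Mertk, like Axl a receptor of Gas6, was 71.7 against 41.1, 48.4 against 36.5 and 96.4 against 72.8 CPM.

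**Figure D4:**
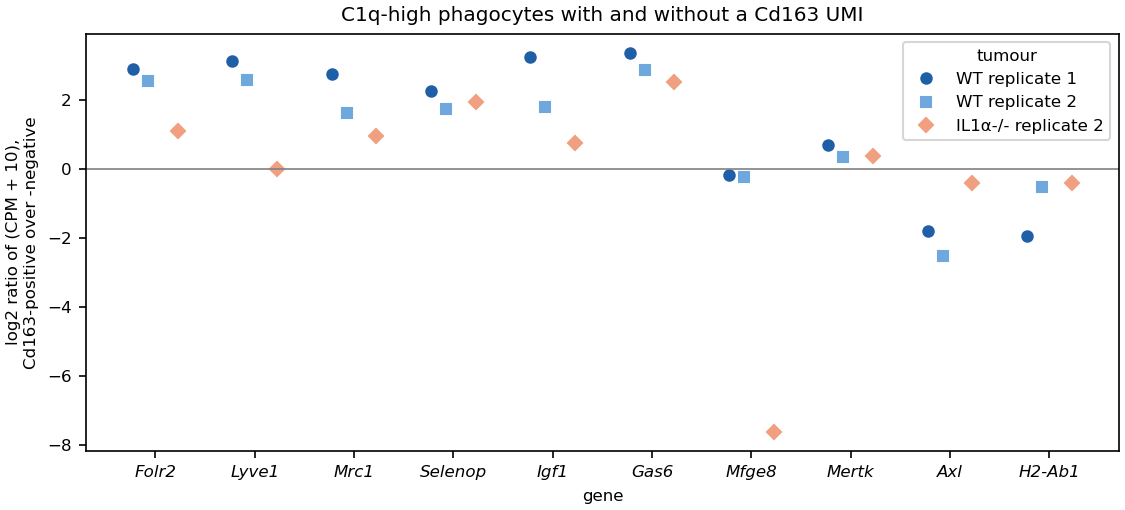
log2 ratio of (CPM + 10) in C1q-high phagocytes with a Cd163 UMI over those without, per gene (horizontal axis) and tumour. Folr2, Mrc1, Selenop, Igf1 and Gas6 lie above 0 in all 3 tumours with Cd163-positive cells, H2-Ab1 below 0; Axl lies below 0 but rests on 2 UMIs in the positive cells of IL1α-/- replicate 2, and Mfge8 in IL1α-/- replicate 2 is far below because of 1 Cd163-negative cell.

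Splitting the same cells by Folr2 in place of Cd163 also gave lower Axl in the positive cells of 3 tumours. Axl was 141 CPM in Folr2-positive and 296 in Folr2-negative cells of WT replicate 1 (42 and 250 UMIs), 105 and 195 in WT replicate 2 (45 and 280 UMIs) and 49.2 and 81.2 in IL1α-/- replicate 2 (10 and 17 UMIs). In that last tumour the share of cells with an Axl UMI was 22.2% on both sides. IL1α-/- replicate 1 had only 3 Folr2-positive cells, with 0 Axl UMIs. Here the positive cells were deeper, with medians in WT tumours of 6472 against 4461.5 and 6428.5 against 3675.5 UMIs, and in IL1α-/- replicate 2, with 6371 against 2917. Igf1 was 300.2 against 306 CPM in IL1α-/- replicate 2, so it did not separate there. Cells with UMIs of all 4 surface markers numbered 9 of 202 C1q-high cells in WT replicate 1 and 4 of 328 in WT replicate 2, and 0 of 29 and 0 of 81 in IL1α-/- replicates 1 and 2.

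The genes most like each member were named by Pearson's r of log2(CPM + 10) over 33 sums of a class or gate in a tumour, among 10050 genes. Sums of 1 tumour share a library and depth, and r is a description. Folr2 was most like Fcna (0.95) and Cbr2 (0.94), Mrc1 like Ccl24 (0.97) and Gatm (0.94), and Cd163 like Ednrb (0.85) and Rapsn (0.80). Mertk was most like Nr1h3 (0.88) and Pf4 (0.87), Selenop like Calml4 (0.89) and Abca1 (0.88), and Axl like Lpl (0.87) and Cd302 (0.86). Gas6 had Pdpn (0.92) and Rcn3 (0.91), Igf1 had Pdpn (0.86) and Flrt2 (0.86), and Mfge8 had Slc6a8 (0.84) and Igsf3 (0.83). Lyve1 was below the level asked for. Among the members, Gas6 and Igf1 were closest (0.86), then Folr2 and Mertk (0.84), and Mrc1 and Mfge8 furthest apart (-0.07).

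Against this map the host genotypes were compared. The share of phagocytes in the C1q-high gate was 56.0% and 55.8% in WT tumours and 22.0% and 35.4% in IL1α-/- tumours, a difference of means of -27.2 percentage points (exact permutation test, two-sided, p = 0.33, the smallest that 2 against 2 allows). Clopper-Pearson 95% intervals, which cover counting error only, ran from 50.7% to 61.1% and 51.7% to 59.8% in WT tumours and from 15.2% to 30.0% and 29.2% to 41.9% in IL1α-/- tumours. After every cell was thinned to 1000 UMIs the difference was -27.6 points. In sums over all phagocytes a gene of the C1q-high gate can therefore be lower with fewer C1q-high cells or with less RNA per cell, and these cannot be told apart there. Values within each gate are given too, but the C1q-high gate itself differed by host. Its summed C1q genes were 11438 and 9471 CPM in WT and 7456 and 5989 CPM in IL1α-/- tumours. In IL1α-/- replicate 1, with 29 cells, all 5 plasmacytoid dendritic markers were detected in it, at 210 CPM summed, against 1 of 5 and 0.537 to 2.42 CPM in the other tumours. The part of either in the host values within the gate was not tested.

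In all phagocytes, 76 of 8437 genes passed (0.901%), 62 higher and 14 lower in IL1α-/- hosts. Of the 10 members 1 passed, Axl, which was lower; lower calls were 0.166% of all genes tested and higher calls 0.735%. The median log2 fold change was -0.45 over the members and -0.01 over all genes. Inside the C1q-high gate these medians were -0.06 and -0.01. Inside the C1q-low gate, where only 3 members were tested, they were -0.95 and -0.02. In C1q-high phagocytes no gene of 6878 passed the edgeR quasi-likelihood test; 809 had an unadjusted p under 0.05, and DESeq2 called 37. In C1q-low phagocytes 6 of 6334 passed (0.0947%), and none of the 3 members that had enough counts to be tested there (Mrc1, Axl and Selenop).

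Axl, a TAM receptor, was 189 and 135 CPM in all phagocytes of WT tumours. In those of IL1α-/- tumours it was 74.2 and 43.7 CPM. Both knockout values lay below both WT values. On the log2 scale Axl fell by 1.57 (SE 0.30, adjusted p = 0.0457), 2.98-fold lower. Of WT phagocytes 36.8% and 32.1% held an Axl UMI, against 10.6% and 10.9% of IL1α-/- phagocytes; T/NK cells, as background, held one in 3.81%, 4.18%, 0.813% and 2.40%. Median depth was 3991, 4514, 1670 and 3442 UMIs in phagocytes and 2865.5, 4075, 1258.5 and 2721 in T/NK cells. Thinned to 1000 UMIs a cell, which left 326, 497, 100 and 211 phagocytes, the shares of phagocytes with an Axl UMI were 16.3%, 11.5%, 8.00% and 3.32%. In T/NK cells thinned in the same way they were 1.76%, 0.756%, 0.429% and 0.780%. The Axl level in T/NK cells was 15.4 and 11.1 CPM in WT and 5.64 and 6.98 CPM in IL1α-/- tumours, also lower without overlap.

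The same direction was seen within both gates, without passing the adjusted test. Among C1q-high phagocytes Axl was 255 and 175 CPM in WT and 124 and 65.5 CPM in IL1α-/- tumours (log2 fold change -1.44, SE 0.36, adjusted p = 0.214; 0.0276 without WT replicate 2). Among C1q-low phagocytes it was 79.98 and 80.8 against 51.4 and 28.6 CPM (-1.16, SE 0.33, adjusted p = 0.245). The host groups did not overlap in either gate as a whole. The C1q-high values carry the lower C1q sums and the plasmacytoid markers given above. Inside the C1q-low gate the hosts overlapped in monocyte-gene cells (26.7 and 45.2 against 43.7 and 0 CPM, from 10, 28, 5 and 0 UMIs). They also overlapped in the other C1q-low cells (153 and 87.9 against 105 and 91.6 CPM, from 40, 29, 4 and 15 UMIs). Both overlaps thus rest on few UMIs in IL1α-/- replicate 1. Arg1 cells, where at least 20 were present, held 128 CPM in WT replicate 2 and 12.2 CPM, from 2 UMIs, in IL1α-/- replicate 2. The part of the gate's make-up in its Axl difference was not tested. The difference between the gates was -0.25 (SE 0.44, adjusted p = 0.989), which does not show that the gates act alike.

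The Axl call was close to the threshold. Its adjusted p was 0.257 without IL1α-/- replicate 2 (log2 fold change -1.19), 0.0951 with cells of at least 1000 UMIs, 0.0502 with no doublets removed, 0.0511 without the phagocyte highest for each member and 0.0595 at 2 times the phagocyte marker share, and ranged from 1.17e-05 to 0.257 over 14 alternatives. Fibroblast markers also differed in phagocytes by host: all 6 were detected in WT tumours, at 58.4 and 60.5 CPM summed, against 2 and 5 of 6 in IL1α-/- tumours, at 15.6 and 30.8 CPM. In the gated fibroblasts themselves the 6 summed to 37119 to 68201 CPM, beside Axl at 182 to 511 CPM. The part of free RNA, of fibroblast RNA and of depth in the Axl difference was not tested.

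Fibroblasts offered a second cell type in the same tumours. Axl there was 393 and 182 CPM in WT and 511 and 297 CPM in IL1α-/- tumours, overlapping between hosts (log2 fold change 0.48, SE 0.47, adjusted p = 0.881). No gene of 9908 passed in fibroblasts with edgeR; 502 had an unadjusted p under 0.05, and DESeq2 called 13. A test of the difference itself, phagocytes against fibroblasts, gave -2.03 for Axl (SE 0.37), unadjusted p = 0.000332 and adjusted p = 0.302 over 10920 genes, of which 3 passed (0.0275%). That test was chosen after the Axl values were seen, and it passed without WT replicate 1 (adjusted p = 0.00335) and with no low-count filter (0.000136).

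**Figure D5:**
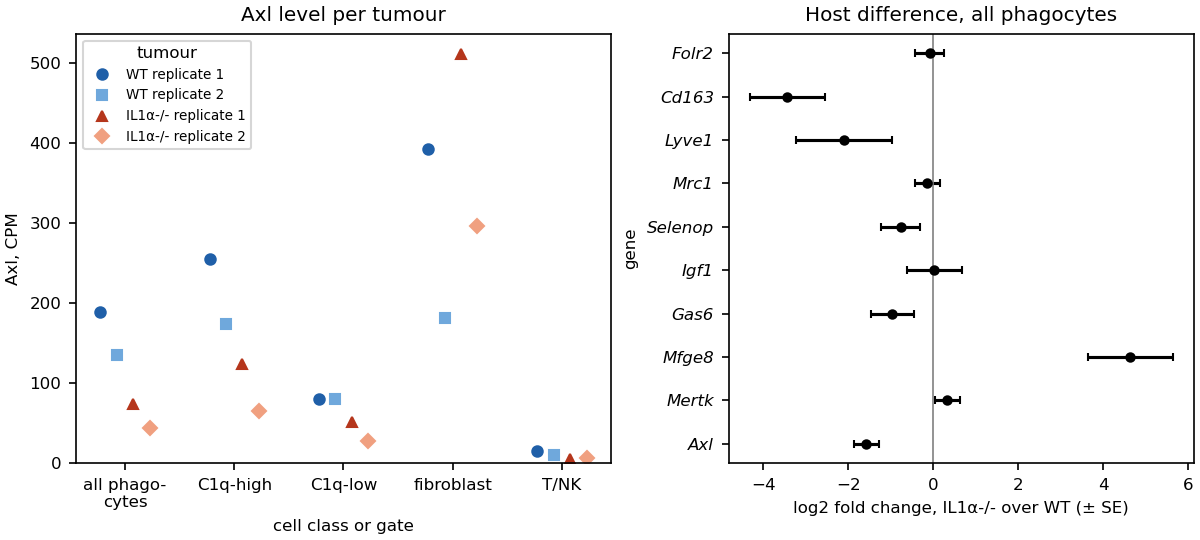
Left, Axl in CPM per tumour in 5 cell classes or gates, WT in blue and IL1α-/- in red; right, log2 fold change of each gene in all phagocytes, IL1α-/- over WT, with its SE. Axl is lower in both IL1α-/- tumours in all phagocytes, in both gates and, at a lower level, in T/NK cells. It overlaps between hosts in fibroblasts. In the right panel only Axl passed the adjusted test.

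Gas6, the ligand of Axl, was 112 and 55.5 CPM in WT phagocytes and 7.82 and 56.6 CPM in IL1α-/- phagocytes (log2 fold change -0.97, SE 0.50, adjusted p = 0.431), where the first knockout value is 2 UMIs. The hosts overlapped. The value ran from -3.46 without IL1α-/- replicate 2 to -0.44 without WT replicate 1, and it passed with no low-count filter (adjusted p = 0.03). In fibroblasts, the main source, its log2 fold change was 0.46 (SE 0.55, adjusted p = 0.906). Mertk was 33.9 and 25.1 against 35.2 and 36.8 CPM in all phagocytes (0.33, SE 0.30, adjusted p = 0.659). Within C1q-high cells Mertk was 46.4 and 37.6 against 86.6 and 75.2 CPM, with 7 and 31 UMIs behind the knockout values (0.86, SE 0.31, adjusted p = 0.351). The same differences in C1q sums and plasmacytoid markers stand beside these values.

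Mfge8 was 12.6 and 21.7 CPM in WT phagocytes and 23.4 and 787 CPM in IL1α-/- phagocytes. Between hosts it differed by 4.63 on the log2 scale (SE 0.99, adjusted p = 0.0681) and by 0.32 without IL1α-/- replicate 2. Without any 1 of the other tumours the adjusted p was 0.000187 to 0.0125. Without the phagocyte highest for each member it was 2.38 (adjusted p = 0.0809), and in IL1α-/- replicate 2 the level without its highest cell was 135 CPM. The share of phagocytes with an Mfge8 UMI was 5.82%, 7.99%, 2.27% and 6.99%, against a background of 4.55%, 5.05%, 1.97% and 3.66% in T/NK cells of the same tumours. Thinned to 1000 UMIs the shares were 1.23%, 1.81%, 2.00% and 3.79% in phagocytes and 1.14%, 1.16%, 1.41% and 1.28% in T/NK cells. The level in T/NK cells, 10.3 to 13.9 CPM, was as high as the 12.6 CPM in phagocytes of WT replicate 1, which is therefore not read as expression. The 6 tumour epithelial markers were at 0 in phagocytes of both IL1α-/- tumours and summed to 19.1 and 13.03 CPM in WT phagocytes.

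Cd163 was 349 and 57.7 CPM in WT phagocytes and 0 and 24.8 CPM in IL1α-/- phagocytes, from 639, 186, 0 and 25 UMIs. Both knockout values lay below both WT values, and the WT tumours differed from each other more than WT replicate 2 differed from IL1α-/- replicate 2. The fitted difference of -3.43 on the log2 scale (SE 0.89, adjusted p = 0.124) did not pass and was -1.66 without WT replicate 1; it passed without WT replicate 2 (-4.23, adjusted p = 3.01e-06). Among C1q-high cells 17.8% and 8.54% held a Cd163 UMI in WT tumours and 0% and 9.88% in IL1α-/- tumours. In T/NK cells, as background, the share was 0.0428% to 0.459%. The C1q-high cells differed in depth, with medians of 5111.5, 4464, 2565 and 4039 UMIs, and thinned to 1000 UMIs the shares were 16.2%, 5.60%, 0% and 2.67%. The 0 of 29 cells of IL1α-/- replicate 1 allows up to 11.9% of cells with a UMI (exact 95% limit, counting error only), which does not limit the share of cells expressing the gene. The C1q sums and plasmacytoid markers of the gate differed as given above. In IL1α-/- replicate 2 the positive cells held 3.12 UMIs of Cd163 each, against 14.7 and 6.54 in WT tumours.

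The other surface markers did not pass. Mrc1 was 831 and 619 CPM in WT and 457 and 830 CPM in IL1α-/- phagocytes (-0.14, SE 0.29, adjusted p = 0.871), and Folr2 84.6 and 49.9 against 39.1 and 73.5 CPM (-0.08, SE 0.34, adjusted p = 0.951). Both overlapped between hosts. Within the C1q-high gate Folr2 was 124 and 82.7 against 111 and 172 CPM. Lyve1 had 19, 17, 2 and 0 UMIs, which is too few to compare (log2 fold change -2.10, SE 1.14, adjusted p = 0.448).

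Selenop was 1948 and 930 CPM in WT and 410 and 1223 CPM in IL1α-/- phagocytes (-0.77, SE 0.46, adjusted p = 0.488), and Igf1 126 and 68.9 against 3.91 and 153 CPM (0.03, SE 0.65, adjusted p = 0.998). The 2 IL1α-/- tumours stood on opposite sides of the WT pair for Igf1: 1 UMI in IL1α-/- replicate 1 and 154 in IL1α-/- replicate 2. Fibroblast Igf1 was likewise lowest in IL1α-/- replicate 1. In C1q-low cells Selenop was 478 and 320 CPM against 154 and 237 CPM, without overlap (-0.95, SE 0.29, adjusted p = 0.281). It passed there without WT replicate 2 (-1.22, adjusted p = 0.00471) and with no low-count filter (0.0393). In all phagocytes Selenop passed with no low-count filter (0.0217), and its value ran from -1.88 without IL1α-/- replicate 2 to -0.18 without WT replicate 1.

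Whether the gate difference of a member itself changed with the host was tested as an interaction. Of 7136 genes 3 passed (0.042%), and none of the 10 members did. The smallest adjusted p among them was 0.188, for Mfge8, whose value rests on the single cells above.

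Among the related lists, the host contrast in all phagocytes called 2 genes. Thbs1 was 84.1 and 58.9 CPM in WT and 758 and 761 CPM in IL1α-/- phagocytes (log2 fold change 3.42, SE 0.24, adjusted p = 0.000554), the 1 call among 14 bridging and receptor genes tested. Thbs1 was higher in C1q-low cells, at 1063 and 1109 CPM there in the knockout tumours against 221 and 132 in WT tumours. In C1q-high cells it was 98.9 and 259 CPM in the knockout tumours, from 8 and 107 UMIs. In WT tumours it was 1.75 and 5.37 CPM there, from 2 and 10 UMIs. Klf4, a transcription factor gene of the other resident macrophage list, was 258 and 217 against 477 and 654 CPM (1.27, SE 0.23, adjusted p = 0.0398), the 1 call among 15.

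None of the genes of the other 7 lists passed. Irs2, an insulin and IGF receptor substrate, had the value nearest to the threshold among those named (44.2 and 38.5 against 70.3 and 121 CPM, log2 fold change 1.32, adjusted p = 0.0681). Apoe, of the sterol list, was at -1.42 (adjusted p = 0.191), Gpx1 at 0.13, Cd47 at 0.54 and Fth1 at -0.07. The 14 tested bridging and receptor genes had a median log2 fold change of 0.34, the 15 other resident genes -0.41 and the 11 sterol genes 0.22, against -0.01 over all genes. Inside the C1q-high gate the medians of these lists were 0.50, 0.13 and 0.17 (14, 15 and 10 tested), against -0.01 over all genes. In fibroblasts none of the listed genes passed.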

How the data were processed

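UMI counts of 4 tumours were analysed. The deposited counts are raw UMIs per gene and barcode, unfiltered, made with Cell Ranger 3.1.0 per the file headers and the submitters' processing notes, on a combined human and mouse (mm10) reference; mouse genes were used. The age of the hosts stands under the labels' cell type field.

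Barcodes with at least 500 UMIs, 250 genes and at most 20% mitochondrial UMIs were kept. Below 5000 UMIs they were tested against free RNA (barcodes of up to 100 UMIs, 10000 simulations, false discovery rate 0.001). The highest 0.8% per 1000 cells by Scrublet score (scanpy 1.11.5) were removed as doublets. A phagocyte had at least 0.3% of its UMIs, and at least 2 UMIs, from its markers and passed no other gate, except that a cell also passing the neutrophil gate went to the class of higher share. C1q-high needed 0.1%, Arg1 cells 0.05% and monocyte-gene cells 0.2%.

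UMIs were summed per tumour and class, at least 20 cells each, and tested with edgeR 4.0.16 (filterByExpr, TMM, quasi-likelihood test, Benjamini-Hochberg over all genes tested, threshold 0.05); DESeq2 1.42.0 was an alternative. Standard errors come from the F statistic. CPM is per 1000000 mouse UMIs of the sum. The tests were tested on simulated data: at a log2 change of 2 they recovered 75.0% of changed genes in all phagocytes (8363 genes tested), 62.1% in C1q-high phagocytes (6798) and 97.9% between gates (7006); at a log2 change of 1, 11.3%, 10.0% and 48.4%.

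The members and gene lists were chosen with earlier results of these data known, and gate thresholds were set after marker distributions were seen. Named genes are all members and 2 genes of like pattern per member. From each list they are up to 4 called genes by smallest p, or else the 2 with the largest mean CPM. H2-Ab1 was named outside this rule. The labels do not say that the tumours came from separate experiments beyond 2 pairs on separate days. The p-values therefore set a difference against the spread between these tumours only. Whether the same replicate number marks the same day is not stated.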

Additional observations from a re-analysis of the deposited data

How the results depend on the processing

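All 10 members kept their direction between gates in every alternative that tested them; the calls lost were Cd163 with DESeq2 and Lyve1 without either WT tumour, and Lyve1 was not tested in 3 settings because too few counts were left. Depth limits the host contrasts: the C1q-high cells of IL1α-/- replicate 1 held 80877 UMIs in all. The causes of the changes below were not tested.

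Counts of called genes moved as follows. In all phagocytes (76 called) they were 410 with no low-count filter, 33 with cells of at least 1000 UMIs, 15 at 2 times the phagocyte marker share, and 9 to 225 without 1 tumour, the lowest without IL1α-/- replicate 2 and the highest without WT replicate 2. In C1q-high phagocytes (0 called) they were 3 with DESeq2's size factors, 37 with DESeq2, 217 with no low-count filter, 3 at 1000 UMIs, 3 at 10% mitochondrial UMIs, 1 with no doublets removed, 4 at 2 times the phagocyte share, 2 at 2 times the C1q threshold, 1 without the highest phagocyte of each member, and 1 to 141 without 1 tumour, the highest without WT replicate 2. In C1q-low phagocytes (6 called) they were 15 with DESeq2, 149 with no filter, 12 at 1000 UMIs and 12 to 158 without 1 tumour, the highest without WT replicate 2. Between gates (1252 called) DESeq2 called 720, and counts without 1 tumour were 732 to 1173. For the interaction (3 called) they were 1 with DESeq2, 27 with no filter, 1 at 1000 UMIs, 1 at 10% mitochondrial UMIs, 1 with no doublets removed, 1 at 2 times the C1q threshold, 7 without the highest phagocytes, and 0 to 26 without 1 tumour, the lowest without IL1α-/- replicate 2 and the highest without WT replicate 2. In fibroblasts (0 called) they were 13 with DESeq2 and 104 with no filter. For phagocytes against fibroblasts (3 called) they were 65 with no filter, 0 with no doublets removed, 5 at 2 times the phagocyte share, and 2 to 78 without 1 tumour, with 41 and 78 when WT replicate 1 or WT replicate 2 was left out. The C1q-high share differed by -33.9 to -20.5 points without 1 tumour.

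Log2 fold changes that changed sign were all of members that had not passed. In all phagocytes Folr2 was 0.0031 at 10% mitochondrial UMIs, 0.072 without the highest phagocytes and -0.83 to 0.28 without 1 tumour; Mrc1 was -0.74 to 0.24 without 1 tumour; Igf1 was -0.27 with DESeq2, -0.0083 with no filter and -4.67 to 0.71 without 1 tumour. In C1q-high phagocytes without 1 tumour Folr2 was -0.14 to 0.75, Lyve1 -6.75 to 0.81, Mrc1 -0.72 to 0.55, Gas6 -2.65 to 0.065, Selenop -1.37 to 0.34 and Igf1 -3.89 to 0.97, and at 2 times the phagocyte share Mrc1 was -0.039. In C1q-low phagocytes Mrc1 was -0.74 at 2 times the phagocyte share and -0.23 to 0.30 without 1 tumour. In fibroblasts without 1 tumour Gas6 was -0.54 to 1.06, Mertk -5.93 to 2.31, Selenop -0.39 to 1.49 and Igf1 -2.42 to 0.48.

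The replicate number as a block gave 123 calls in all phagocytes, 28 in C1q-high, 36 in C1q-low and 5 in fibroblasts. With it Mfge8 passed in all phagocytes (adjusted p = 0.0376), Axl stayed past the threshold (0.0195), Igf1 was -0.22 there and Mrc1 in C1q-high cells -0.0016. Deviations of same-numbered tumours correlated at -0.0086 in all phagocytes and 0.405 in fibroblasts. Over only 2 pairs these values cannot decide whether the numbers mark pairs. The main fits were made without the block.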
